A study of Homo sapiens with 8 samples.

Results

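Mitochondrial protein import and folding genes were followed through ribosome profiling of cells labelled HepG2, an established human liver cancer line, with METTL5 intact (METTL5-WT) or disrupted (METTL5-KO). METTL5 is the enzyme that places N6-methyladenosine on 18S ribosomal RNA. The genes were taken by name: every gene of the translation efficiency table whose symbol begins with TIMM (15 genes) or TOMM (8 genes), and 13 listed chaperones, peptidases, proteases and assembly factors, of which 12 were present. This gave 35 of the 11244 genes in that table. Each genotype was represented by 2 lysates, and each lysate gave an input library (RNA of the whole lysate, read as mRNA level) and a library of ribosome-protected fragments (RPF), so that 8 libraries fell into 4 groups of 2 replicates. METTL5-KO cells carried a CRISPR-Cas9 lesion made with guides against METTL5, and all lysates, METTL5-WT included, came from cells exposed to cycloheximide (100 µg/mL for 7 min), which stops elongating ribosomes. Cells of either genotype were grown from isolated single clones, and the clone behind each replicate is not given in the sources used here, so clone and genotype cannot be told apart. In bulk libraries of this kind, fewer cells holding a message and less message per cell cannot be told apart either.

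The libraries were first checked against their labels. METTL5 had 490 and 542 input reads in METTL5-WT replicates 1 and 2, against 208 and 151 in the METTL5-KO ones. Footprint reads of METTL5 numbered 158 and 226 against 41 and 21, so the genotype labels held. The cell line label did not hold in the same way. The 8 liver genes used as defining markers of HepG2 (ALB, AFP, APOA1, APOB, TTR, SERPINA1, FGB and HNF4A) together had 3 to 12 counts in an input library of 10710226 to 15307257 counts. TTR, SERPINA1 and FGB had 0 counts in all 4 input libraries, and 9 counts of AFP in METTL5-KO replicate 2 were the highest value of any of the 8. Of 5 genes that mark other cells, the collagen gene COL1A1 had 429 and 484 counts in the METTL5-WT replicates and 666 and 937 in the METTL5-KO ones, while PTPRC, PECAM1, HBB and KRT5 had at most 1 count in a library. The input of COL1A1 rose by 0.44 in METTL5-KO (SE 0.14, edgeR adjusted p = 0.0225), and whether this bears on the results below was not tested. All 4 input libraries thus lacked the defining messages of the labelled line. Since no library was free of this, the results below could not be given without such libraries, and HepG2 stands in this text only as the label. RPF libraries were shallower in METTL5-WT (3970779 and 4592443 reads over the table) than in METTL5-KO (8626705 and 9255921 reads).

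Nearly all mitochondrial proteins are made on cytosolic ribosomes and imported. Precursors pass the outer membrane through the TOM complex, and small TIM chaperones carry hydrophobic ones across the intermembrane space to the TIM22 carrier translocase or to the outer membrane assembly machinery, while the TIM23 channel and its motor pull presequence proteins into the matrix, where peptidases trim them and chaperonins fold them. Small TIM proteins are folded in the intermembrane space by a disulfide relay that oxidises paired cysteines.

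The sequence that sets the small TIM chaperones apart is a pair of cysteine codons spaced by 3 other codons, found at 2 places in each coding sequence. It is shown for the 5 small TIM genes of the table because 2 of them, TIMM10 and TIMM8B, rose in RPF. The reference transcripts are those of GENCODE release 44 on hg38, and capitals mark the cysteine codons.
TIMM10 first pair: TGCcaccggaagTGT
TIMM10 second pair: TGCctggaccgaTGT
TIMM8B first pair: TGTtgggataaaTGT
TIMM8B second pair: TGTctctccagcTGT
TIMM8A first pair: TGTtgggagaagTGC
TIMM8A second pair: TGTtttgtgaacTGC
TIMM9 first pair: TGCtttttggacTGT
TIMM9 second pair: TGTtcagaacatTGC
TIMM13 first pair: TGTttccggaagTGT
TIMM13 second pair: TGCatcgccatgTGC
A search of coding frames for TGT or TGC, 3 further codons and TGT or TGC, met again after 11 to 16 codons, found exactly these 5 of the 35 genes. Among all genes with a coding annotation, 70 of 11189, or 0.626%, held such a double pair.

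Start codon surroundings are shown for the genes called in RPF or translation efficiency and for HSPD1, the partner of HSPE1. Each line gives 12 bases before the start codon, the start codon in capitals and 12 bases after it.
TIMM10: tgctaggctgagATGgatcctctcagg
TIMM8B: ctgaggcgaacaATGgcggagctgggc
TIMM17A: attggagtcaagATGgaggagtacgcg
TOMM70: aggacacttgtcATGgccgcctctaaa
TOMM40: tagcaggcgaccATGgggaacgtgttg
HSPE1: gcggagggagtaATGgcaggacaagcg
HSPD1: cgccccgcagaaATGcttcggttaccc
A purine at the third base before the start codon together with G directly after it is the favoured context for initiation. It was present in 29 of the 35 genes (82.9%), against 47.4% of 11175 genes of the table. The context did not separate the genes by direction: TIMM10, TIMM8B, TIMM17A and TOMM70 held it, and so did TOMM40 and HSPE1, while HSPD1 did not.

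Few of the 35 genes changed. In input, 3 of 35 were called (edgeR quasi-likelihood test on counts, Benjamini-Hochberg adjusted p under 0.05), with 2 higher and 1 lower in METTL5-KO, against 22.4% of all 14054 genes tested. In RPF, 4 of 35 were called, all higher (limma on log2 of the normalised value plus 1), against 24.4% of 11240 genes in either direction. The share called higher was 11.4% of the 35 genes and 13.8% of all genes, and the share called lower was 0 of 35, with 2 at an unadjusted p under 0.05, and 10.7% of all genes. edgeR called 1 lower. With quantile normalization the calls were 3 higher and 1 lower, and with the length trend removed 2 higher and 3 lower. edgeR on the recovered reads called 5 of 35 in RPF, against 25.6%. Translation efficiency (TE) is the RPF level over the input level, here the difference of their log2 values within a lysate. In TE, 3 of 35 were called by limma, against 4.79% of 11240 genes. Of these, 1 was higher (2.7% of all genes) and 2 were lower (2.08%). edgeR on the recovered reads called 1 higher and 2 lower as well, against 3.13% and 3.68% of all genes and 6.81% in either direction. The shares of the 35 genes called were thus 8.57% in input, 11.4% in RPF and 8.57% in TE. These shares were under the background in input, and in RPF near it for rises. In TE the share stood beside 4.79% of all genes by limma and 6.81% by edgeR. It rests on 3 genes and is not read as a result about the 35.

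The medians of the 35 changes were close to 0. The median log2 change was 0.00 in input, 0.11 in RPF and 0.10 in TE, beside -0.01, 0.02 and 0.02 over all genes. In TE, 24 of the 35 fitted changes were above 0 and 11 below. With the values of METTL5-KO replicate 1 left out, the median TE change was -0.01, and without METTL5-KO replicate 2 it was 0.26. With 2 values against 2, an exact permutation test of a single gene cannot give a p under 0.333, so all calls rest on a spread shared over genes. Values of the genotypes did not overlap in 17 of 35 genes in input (63.3% of all genes), 17 in RPF (61.4%) and 19 in TE (53.2%).

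**Figure D1:**
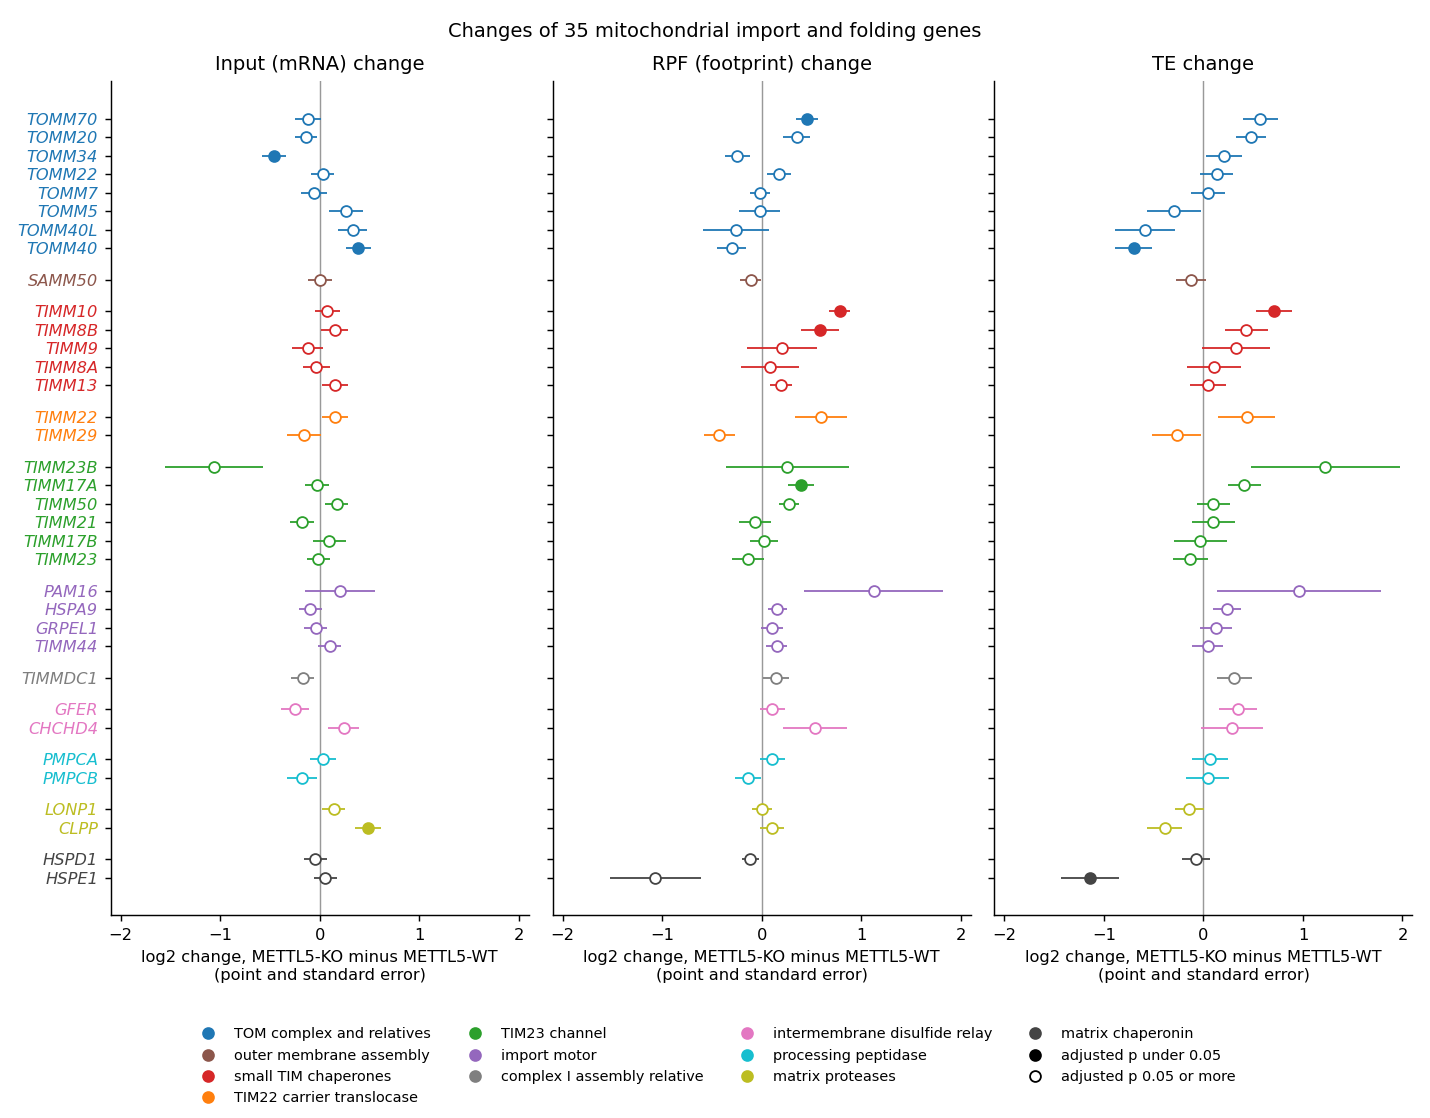
Log2 changes in METTL5-KO minus METTL5-WT (horizontal axes) of 35 genes (rows, coloured by role) in input, RPF and TE, with standard errors; filled points have an adjusted p under 0.05. Most points lie near 0, with TIMM10 called higher and HSPE1 and TOMM40 called lower in TE.

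The TOM complex is the entry gate of the outer membrane, and its 8 genes moved in different directions. TOMM70, a receptor for carrier precursors (chr3:100363431-100401089), had normalised RPF values of 886 and 1051 in METTL5-WT against 1329 and 1320 in METTL5-KO. Both METTL5-KO values were above both METTL5-WT values. Its RPF rose by 0.46 on the log2 scale (SE 0.11, limma adjusted p = 0.00827, edgeR adjusted p = 0.00761). Without METTL5-KO replicate 1 or 2 the limma adjusted p of this rise was 0.0604 or 0.0546. Input of TOMM70 was 1272 and 1179 in METTL5-WT against 1288 and 993 in METTL5-KO, so the groups overlapped. Its TE change was 0.57 (SE 0.18, limma adjusted p = 0.0743), which did not pass the threshold, while with the lysate as a block the limma adjusted p was 0.0383. TOMM20, the presequence receptor, gave a TE change of 0.48 (limma adjusted p = 0.0779, and 0.0478 with the lysate as a block), with log2 TE of -3.08 and -2.89 in METTL5-WT against -2.56 and -2.46 in METTL5-KO.

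TOMM40, which forms the pore itself (chr19:44890569-44903689), was called in input and in TE in opposite directions. Its normalised input was 483 and 450 in METTL5-WT against 578 and 654 in METTL5-KO. Its RPF values were 504 and 445 in METTL5-WT against 385 and 384 in METTL5-KO. Values of METTL5-KO thus lay above both METTL5-WT values in input and under both in RPF. The input of TOMM40 rose by 0.39 (SE 0.12, edgeR adjusted p = 0.0267) and its TE fell by 0.70 (SE 0.18, limma adjusted p = 0.0411, edgeR adjusted p = 0.0212). With DESeq2 the input change of TOMM40 did not pass (0.39, DESeq2 adjusted p = 0.0537). The RPF change of -0.30 did not pass (limma adjusted p = 0.16). The TE change of TOMM40 was -0.40 with an adjusted p of 0.183 by limma once the trend of each library on GC content was removed. Its coding sequence had 62.5% GC, and across all genes TE change and coding GC content had a Spearman rho of -0.47.

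TOMM40L, the paralogue of the pore, had normalised input of 253 and 261 in METTL5-WT against 288 and 363 in METTL5-KO. Its RPF values were 71.3 and 88.2 against 67.5 and 64.7, on 30 to 58 reads in a library. The groups of TOMM40L did not overlap in input or RPF, and its TE change was -0.59 (limma adjusted p = 0.256). TOMM34, a cytosolic helper of precursors, was called lower in input, with 985 and 1144 in METTL5-WT against 733 and 825 in METTL5-KO. Its input fell by 0.46 (SE 0.12, edgeR adjusted p = 0.00757), and both METTL5-KO values were under both METTL5-WT values. TE of TOMM34 overlapped between genotypes. TOMM22, the central receptor, and the small subunits TOMM5 and TOMM7 were not called in input, RPF or TE, with TE changes from -0.30 (TOMM5) to 0.13 (TOMM22). SAMM50, the core of the machinery that inserts barrel proteins in the outer membrane, had changes of 0.00 in input, -0.11 in RPF and -0.13 in TE, and none passed the threshold.

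Among the 5 small TIM chaperones 2 rose in RPF and 1 of these in TE, where 13.8% and 2.7% of all genes were called higher. TIMM10 (chr11:57528464-57530803), which pairs with TIMM9 in the main carrier chaperone of the intermembrane space, had normalised RPF values of 4915 and 4386 in METTL5-WT against 7198 and 8913 in METTL5-KO. Its input was 892 and 985 in METTL5-WT against 880 and 1116 in METTL5-KO. Footprints were separated between genotypes and messages were not. RPF of TIMM10 was 1.72-fold higher in METTL5-KO (log2 change 0.79, SE 0.11, limma adjusted p = 6.52e-05, edgeR adjusted p = 9.79e-06). Log2 TE was 2.46 and 2.15 in METTL5-WT against 3.03 and 3.00 in METTL5-KO, and TE rose by 0.71 (SE 0.18, limma adjusted p = 0.035, edgeR adjusted p = 0.0167). After removal of the trend on coding length the TE change was 0.50 and the limma adjusted p 0.103.

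TIMM8B (chr11:112084800-112086798), of the family that pairs with TIMM13 and serves a smaller set of precursors, had RPF values of 195 and 205 in METTL5-WT against 303 and 298 in METTL5-KO. Its RPF rose by 0.59 (SE 0.19, limma adjusted p = 0.0314, edgeR adjusted p = 0.035), with no overlap of the groups. With the length trend removed the RPF change of TIMM8B was 0.29 (limma adjusted p = 0.30), and DESeq2 on the recovered reads gave 0.56 (adjusted p = 0.0982). The call was also lost without METTL5-KO replicate 1 (0.57, limma adjusted p = 0.233) or METTL5-KO replicate 2 (0.60, limma adjusted p = 0.204). The TE change of TIMM8B was 0.43 (limma adjusted p = 0.249), with log2 TE of -0.76 and -0.62 in METTL5-WT against -0.15 and -0.37 in METTL5-KO. TIMM9, the partner of TIMM10, had 29 and 31 RPF reads in METTL5-WT against 79 and 54 in METTL5-KO, and its TE change was 0.33 (SE 0.34, limma adjusted p = 0.602). TIMM13 and TIMM8A had TE changes of 0.04 and 0.11. All 5 fitted TE changes of the small TIM genes were above 0 and 1 passed the threshold, where 5818 of 11240 genes had a change above 0. Removal of the length trend gave TIMM8A -0.09 and TIMM13 -0.15, and quantile normalization gave TIMM13 -0.02, so the sign of these did not hold under both.

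TIMM22, the channel of the carrier translocase, had 49 and 73 RPF reads in METTL5-WT against 205 and 142 in METTL5-KO. Its normalised RPF values of 116, 146, 247 and 158 in that order gave a change of 0.60 (SE 0.26, limma adjusted p = 0.114). TIMM29, a metazoan subunit of that translocase, had RPF values of 411 and 425 in METTL5-WT against 317 and 304 in METTL5-KO. Its RPF change was -0.43 with a limma adjusted p of 0.0589, while edgeR on the recovered reads gave -0.45 and an adjusted p of 0.0423. TIMM29 was the 1 gene on which the RPF calls of both tools differed. The channel and its subunit therefore lay on opposite sides of 0 in RPF, and the difference between them was not tested.

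In the TIM23 channel 1 of 6 genes was called in RPF, a rise, where 13.8% of all genes were called higher and 24.4% in either direction. In TE 0 of the 6 were called by limma and by edgeR, and 1 had an unadjusted p under 0.05 in each. TIMM17A (chr1:201955503-201970664), a channel subunit, had RPF values of 741 and 616 in METTL5-WT against 933 and 846 in METTL5-KO. Its RPF rose by 0.40 (SE 0.13, limma adjusted p = 0.0347, edgeR adjusted p = 0.0357), and its TE change of 0.41 did not pass (limma adjusted p = 0.156). The RPF call of TIMM17A was lost in 8 of 17 alternatives. With the length trend removed its change was 0.21 (limma adjusted p = 0.265), and without METTL5-WT replicate 2 it was 0.26 (limma adjusted p = 0.137). Without METTL5-KO replicate 1 or 2 it was 0.32 or 0.47 (limma adjusted p = 0.292 and 0.0858). Removal of the GC trend, quantile normalization and DESeq2 gave changes of 0.33 to 0.37 with adjusted p from 0.065 to 0.103. TIMM17B, its paralogue, had an RPF change of 0.03. TIMM23, the pore-lining subunit, TIMM50, the receptor that hands over presequences, and TIMM21, which links the channel to the TOM complex and the respiratory chain, had TE changes of -0.13, 0.10 and 0.10 that did not pass. TIMM23B, a near copy of TIMM23, had 23 and 23 input reads in METTL5-WT against 14 and 14 in METTL5-KO, with 4 and 12 RPF reads against 18 and 14. At this depth its TE change of 1.22 had an SE of 0.75 and did not pass (limma adjusted p = 0.347). Of its exonic bases 29.9% lie on the same strand as the read-through gene TIMM23B-AGAP6, so reads of these genes can be divided in more than 1 way.

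The import motor comprised HSPA9, the matrix Hsp70, GRPEL1, its nucleotide exchange factor, TIMM44, which ties it to the channel, and PAM16, a J-like regulator. Of these, 0 were called in input, RPF or TE by limma or edgeR, and 0 had an unadjusted p under 0.05. HSPA9 had normalised RPF values of 4150 and 4542 in METTL5-WT against 5101 and 4607 in METTL5-KO, and its TE change was 0.24 (SE 0.14, limma adjusted p = 0.32). PAM16 had 41 and 34 input reads in METTL5-WT against 38 and 74 in METTL5-KO. Its RPF libraries held 2 and 14 reads in METTL5-WT against 22 and 25 in METTL5-KO. Its TE change was 0.96 (SE 0.82), and it was -0.31 without METTL5-WT replicate 1, the library with 2 reads. Exonic bases of PAM16 overlapped the read-through gene CORO7-PAM16 by 22.4%. TIMMDC1, a TIMM17 relative that takes part in assembly of complex I, had a TE change of 0.31 (limma adjusted p = 0.31).

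**Figure D2:**
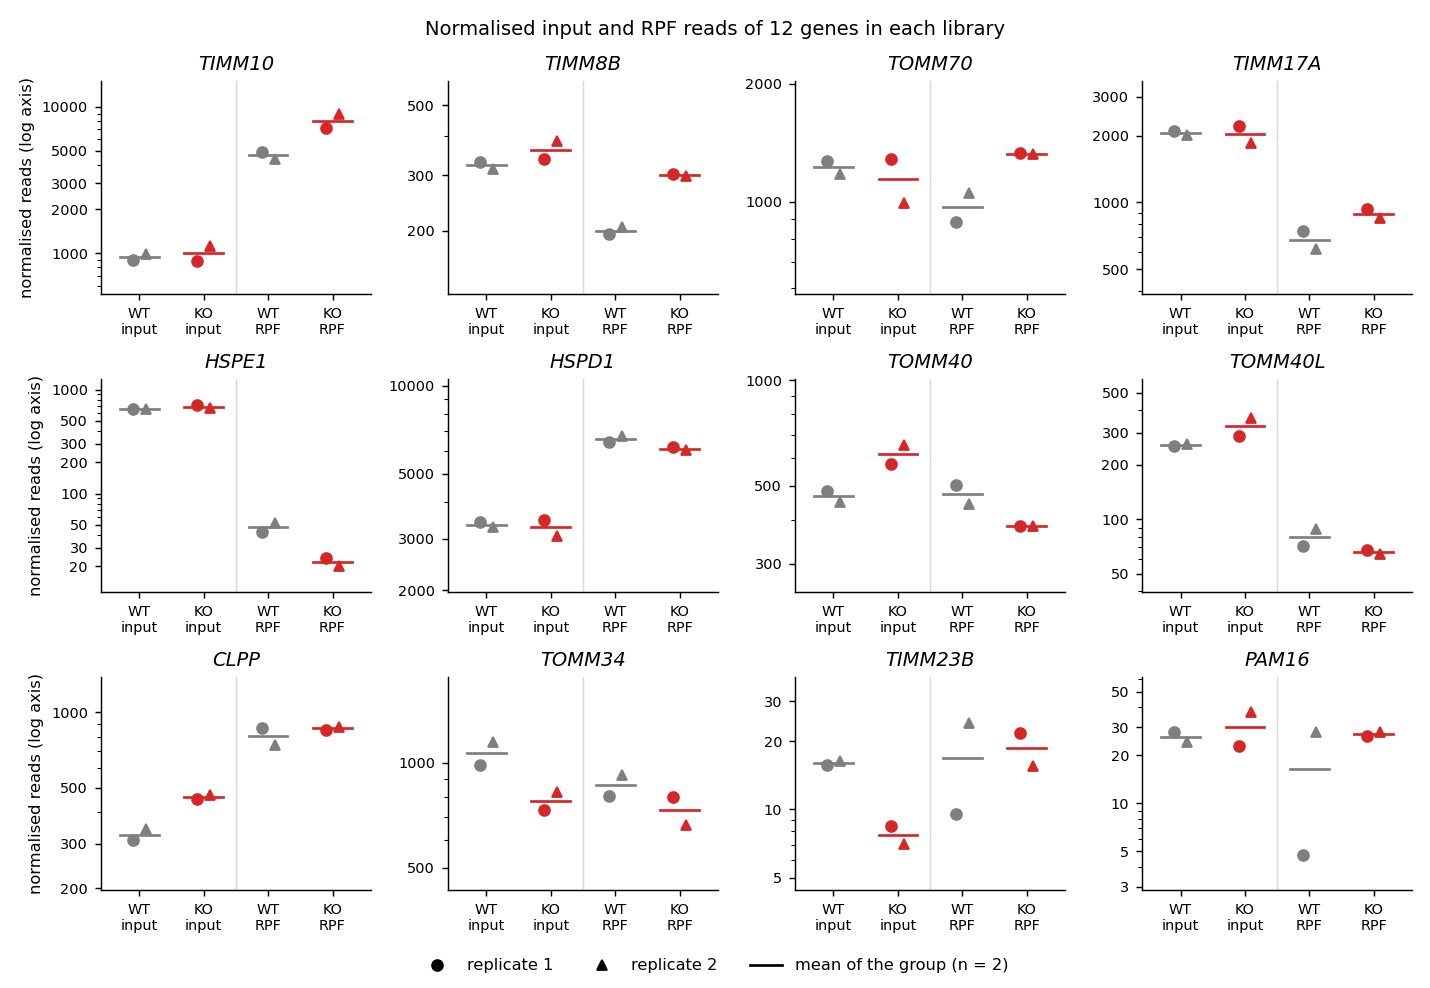
Normalised reads (vertical log axes, which differ by gene) of 12 genes in each input and RPF library; circles and triangles are replicates 1 and 2, and bars are means of 2. RPF of TIMM10 in METTL5-KO (7198 and 8913) lies above METTL5-WT (4915 and 4386) while input overlaps, and RPF of HSPE1 in METTL5-KO (24.1 and 20.1) lies under METTL5-WT (42.8 and 52.1).

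CHCHD4, the oxidoreductase of the disulfide relay that traps small TIM proteins, and GFER, the oxidase that recharges it, were called in 0 of the comparisons by limma or edgeR, with 0 unadjusted p under 0.05. CHCHD4 had 26 and 33 RPF reads in METTL5-WT against 82 and 79 in METTL5-KO, with an RPF change of 0.54 (SE 0.32, limma adjusted p = 0.248). GFER had log2 TE of 1.13 and 1.29 in METTL5-WT against 1.55 and 1.57 in METTL5-KO, and a TE change of 0.35 (SE 0.19, limma adjusted p = 0.297). GFER has a coding GC content of 66.2%, and with the GC trend removed its TE change was 0.71 (limma adjusted p = 0.0478).

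The matrix enzymes that trim and degrade imported proteins showed 1 called gene, CLPP in input, where 22.4% of all genes were called. PMPCA and PMPCB, the subunits of the processing peptidase, had TE changes of 0.07 and 0.04. CLPP, the proteolytic subunit of a matrix protease (chr19:6361531-6370242), had normalised input of 310 and 342 in METTL5-WT against 450 and 468 in METTL5-KO, which did not overlap. Its input rose by 0.48 (SE 0.13, edgeR adjusted p = 0.00883), the largest called input rise among the 35 genes. RPF of CLPP was 865 and 742 in METTL5-WT against 851 and 873 in METTL5-KO, so the higher message level had no counterpart in footprints that passed the test. The TE change of CLPP was -0.39 (limma adjusted p = 0.202) and -0.05 once the GC trend was removed. LONP1, the ATP-dependent matrix protease, had changes of 0.14 in input, 0.01 in RPF and -0.14 in TE, and none passed.

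HSPD1 and HSPE1 encode the subunits of the matrix chaperonin, the folding cage and its lid, and they are neighbours on opposite strands of chromosome 2. Input of HSPD1 and HSPE1 gave changes of -0.05 and 0.06 that did not pass the threshold. HSPE1 had normalised input of 658 and 651 in METTL5-WT against 707 and 667 in METTL5-KO. Footprints of HSPE1 were few, with 18 and 26 reads in METTL5-WT against 20 and 18 in METTL5-KO. After scaling to library depth these became 42.8 and 52.1 against 24.1 and 20.1. TE of HSPE1 fell by 1.14 (SE 0.29, limma adjusted p = 0.0365, edgeR adjusted p = 0.0312), the largest called TE change among the 35 genes. Its RPF change of -1.07 did not pass (SE 0.46, limma adjusted p = 0.105). The TE model shares its spread over input and RPF libraries, so the SE in TE can understate the noise of so few footprints. HSPD1, in contrast, had 2697 and 3372 RPF reads in METTL5-WT against 5119 and 5391 in METTL5-KO, and a TE change of -0.08 (SE 0.14, limma adjusted p = 0.789). The difference between HSPE1 and HSPD1 was not tested. The call for HSPE1 therefore rests on 82 RPF reads in 4 libraries, and 10.5% of its exonic bases lie on the same strand as the read-through gene HSPE1-MOB4.

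Repeated sequence may bear on several of these values, since the study kept only reads with a single mapping place, in input as well as in RPF. For each gene every 28-base window of the coding sequence was searched on both strands of hg38. In HSPE1 84.9% of windows lay at 2 or more places, in HSPD1 71.9%, in TOMM20 57.8% and in TOMM40 56.7%. TIMM8A (46.2%), TIMM23B (38.0%), TIMM8B (36.5%), CHCHD4 (34.6%) and TIMM23 (30.3%) followed. No window of 17 genes was repeated, TIMM10 and TOMM70 among them. Both genes called lower in TE were among the 4 with over 50% of their windows repeated, and the gene called higher had none. The rest of these 4, TOMM20 and HSPD1, had TE changes of 0.48 and -0.08 that were not called in the main test. Whether repeated windows have a part in the calls was not tested.

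**Figure D3:**
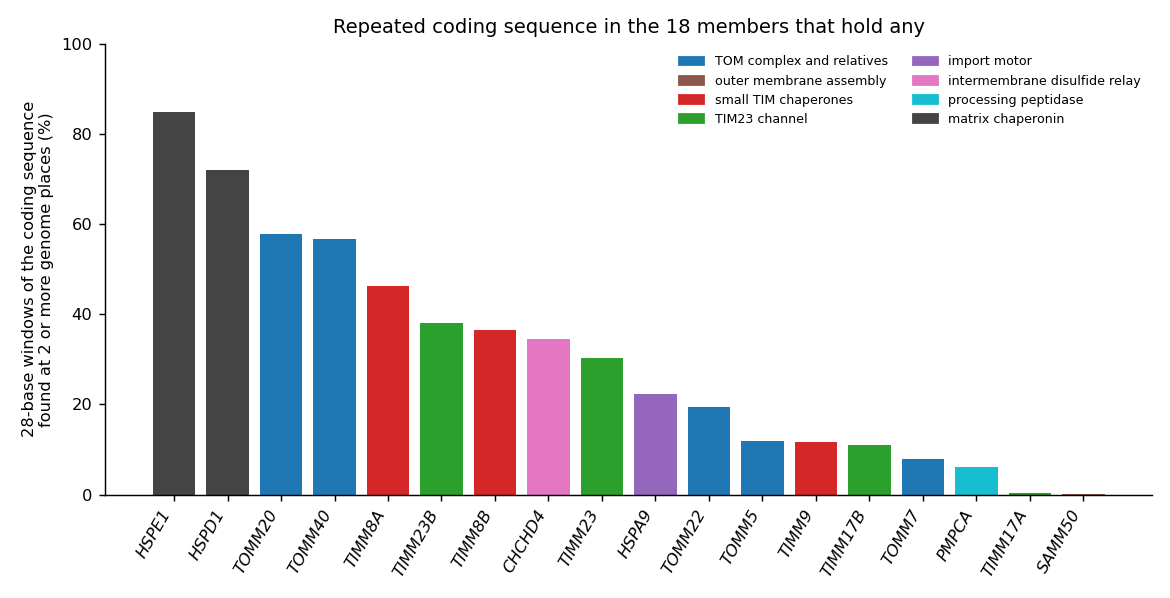
Share of 28-base coding windows found at 2 or more places of hg38 (vertical axis, percent) for the 18 genes with any, coloured by role. HSPE1 at 84.9% and HSPD1 at 71.9% are the highest, and TOMM20 and TOMM40 are the next.

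Short and long proteins of the TIMM and TOMM families were compared at 150 residues. The 9 short genes (51 residues for TOMM5 to 145 for TOMM20) had a median TE change of 0.13 and a range from -0.30 to 0.71. The 14 long genes had a median of 0.10 and a range from -0.70 to 1.22. The difference of these medians was 0.03, within the 0.07 by which it varied between lysates of a genotype (SD, 2 lysates each). Each class held 1 TE call, TIMM10 among the short and TOMM40 among the long. Over all genes tested, 66 of 721 short and 469 of 10499 long genes were called in TE. Over all genes tested the difference was larger, with a median of 0.17 in 721 short genes and 0.01 in 10499 long ones. A limit of 110 residues gave a difference of -0.01 in the TIMM and TOMM genes, and removal of the length trend gave -0.04. In RPF the short genes had a median of 0.19 and the long ones 0.09, with 2 calls each. Over all genes tested, 252 of 721 short and 2490 of 10499 long genes were called in RPF. A separation of small from long import proteins was therefore not seen in TE at this depth. All small TIM genes had fitted changes above 0 in the main fit. With the length trend removed TIMM8A was at -0.09 and TIMM13 at -0.15. The short TOM genes had changes of -0.30 (TOMM5), 0.05 (TOMM7), 0.13 (TOMM22) and 0.48 (TOMM20). Across the 23 TIMM and TOMM genes, TE change had a Spearman rho of -0.15 with coding length and -0.50 with coding GC content, beside -0.16 and -0.47 over all genes. These are descriptions over genes that share libraries.

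**Figure D4:**
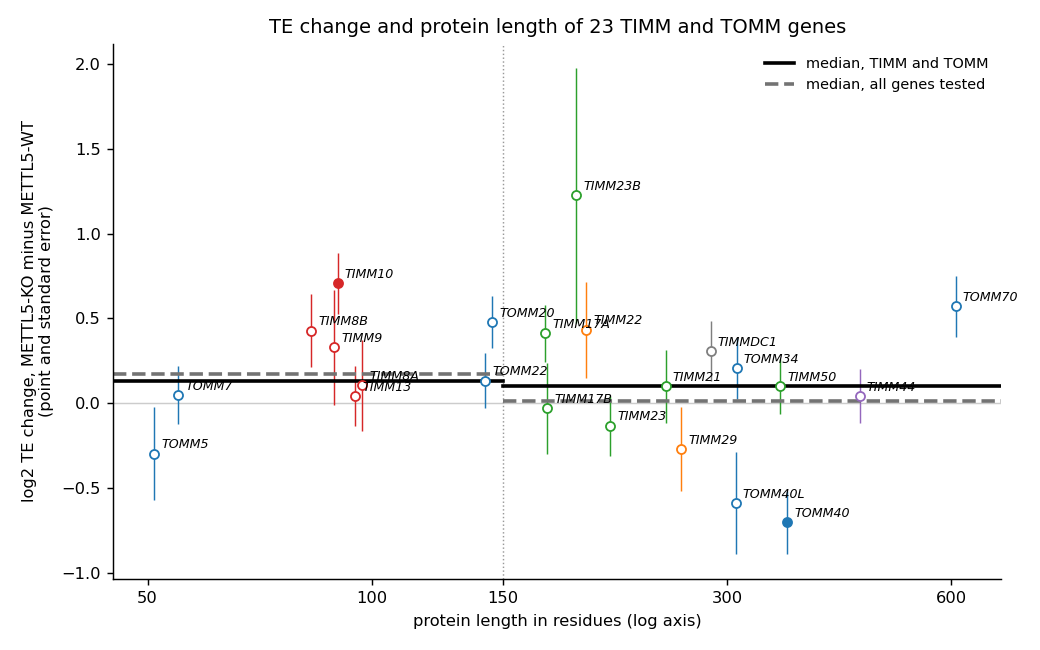
TE change with standard error (vertical axis, log2) against protein length in residues (log axis) for 23 TIMM and TOMM genes, with medians of genes up to and over 150 residues as lines. The TIMM and TOMM medians, 0.13 and 0.10, lie closer together than those of all genes, 0.17 and 0.01.

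Levels of TE between genes were set per length, as RPF per kilobase of coding sequence over input per kilobase of exon, with no test. In METTL5-WT they ran from 0.387 and 0.477 for HSPE1 to 30.2 and 33.1 for TOMM5. TIMM50 (15.9 and 13.0), TIMM10 (15.8 and 12.8) and SAMM50 (12.8 and 13.9) came next, and these neighbours overlapped in their values. TIMM9 (0.898 and 0.949), TIMM23 (0.983 and 0.954) and TOMM20 (0.93 and 1.07) were near the bottom, above HSPE1, and the range of TOMM20 overlapped that of both others. The partners TIMM10 and TIMM9, which act in a common complex, therefore lay far apart in TE level, and so did HSPD1 (8.30 and 9.15) and HSPE1. Reads with more than 1 mapping place were not kept, and the lengths were not corrected for this. Of the coding windows 84.9% were repeated in HSPE1, 71.9% in HSPD1, 57.8% in TOMM20, 30.3% in TIMM23 and 11.7% in TIMM9. Whether this has a part in their levels was not tested. In METTL5-KO TIMM10 was at 23.5 and 22.95, above both METTL5-WT values. The order depended on the length used for the message: per length of the canonical transcript TOMM5 was at 5.91 and 6.48 and TIMM10, at 13.6 and 11.02, was highest in METTL5-WT replicate 1 and replicate 2.

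**Figure D5:**
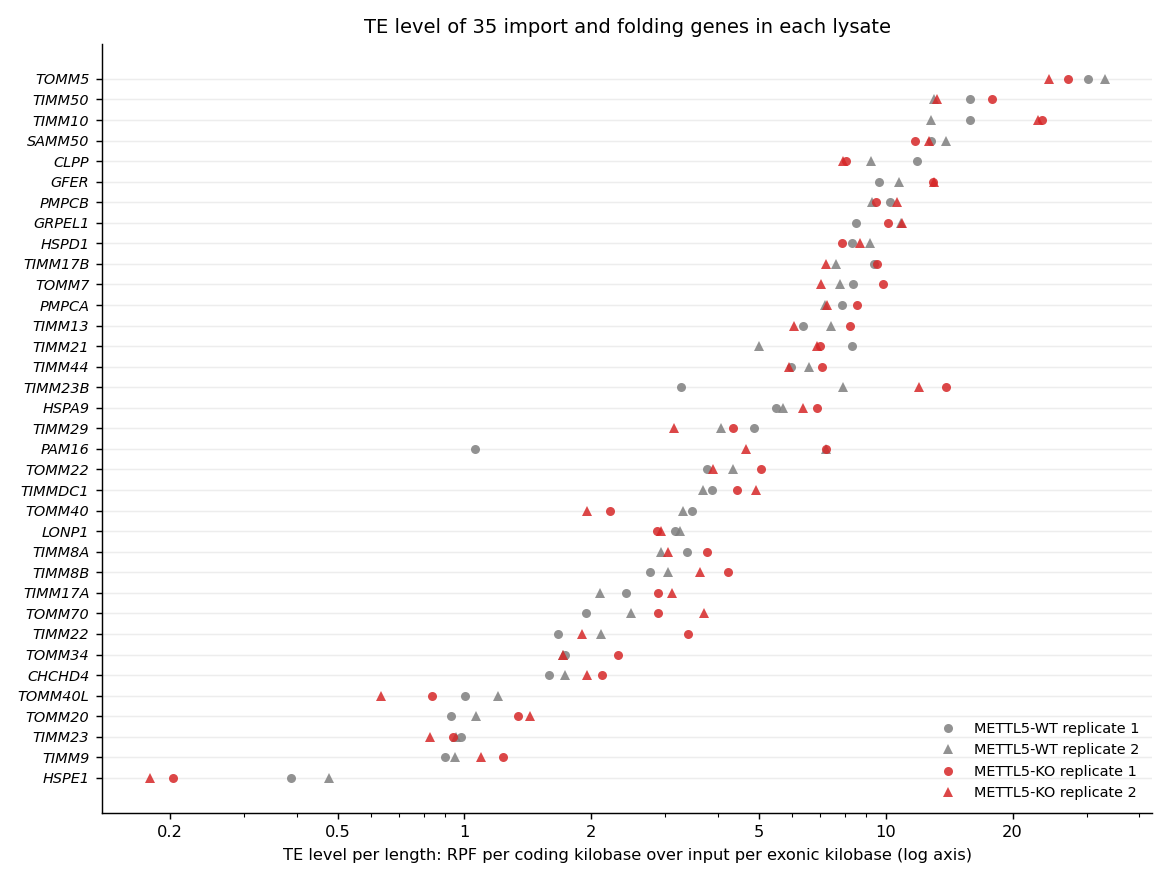
TE level per length (horizontal log axis, RPF per coding kilobase over input per exonic kilobase) of 35 genes in 4 lysates, ordered by the METTL5-WT mean. TOMM5 at 30.2 and 33.1 is highest in METTL5-WT and HSPE1 at 0.387 and 0.477 lowest. The log2 TE of the genotypes did not overlap in 19 of the 35 genes (53.2% of all genes), TIMM10, HSPE1 and TOMM40 among them.

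Factors of import and quality control outside the named families were counted as well. Of 32 such genes, 7 were called higher and 1 lower in RPF (edgeR called 7 and 2), beside 13.8% of all genes higher and 10.7% lower. In TE, 1 of the 32 was called by limma, beside 4.79% of all genes in either direction. MTX2, a partner of SAMM50 at the outer membrane, rose by 0.88 in TE (SE 0.20, limma adjusted p = 0.0204). The porins VDAC1 and VDAC3 rose in RPF by 0.71 and 0.40, and SPG7, a subunit of an inner membrane protease, fell by 1.26 in RPF and by 0.78 in input. Of 21 proteins with paired cysteines that the disulfide relay folds, 7 were called higher and 0 lower in RPF by limma and by edgeR, with 1 lower at an unadjusted p under 0.05 by each. In TE, 1 of the 21 was called by limma, beside the same 4.79% of all genes. CHCHD3, a subunit of the inner membrane contact sites, rose by 0.84 in TE (SE 0.17, limma adjusted p = 0.0114). The median TE change of these 21 genes was 0.26, beside 0.33 for the 5 small TIM genes and 0.02 over all genes. For 75 mitochondrial ribosomal proteins and 72 subunits of the respiratory chain and ATP synthase the median TE changes were 0.27 and 0.21, with 7 and 9 genes called higher by limma, beside 2.7% of all genes. edgeR called 7 of the 75 higher, and 10 of the 72 higher with 2 lower, beside 3.13% higher and 3.68% lower of all genes. The lists of paired-cysteine proteins and of respiratory chain subunits also overlap, so they are not separate observations. NDUFB7, NDUFA8, COX6B1 and UQCRH, called higher in RPF, were in both. All of these lists share libraries with the 35 genes.

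Some import genes were outside the TE table, which lists genes with at least 1 read in every library. DNAJC19, a J-protein of the motor, had 205 to 284 input counts and an input change of 0.01 (edgeR adjusted p = 0.975). TIMM10B, a further small TIM protein, had 355 to 608 counts and an input change of 0.31 (edgeR adjusted p = 0.112). TOMM6, a small TOM subunit, had 0 counts in all 4 input libraries, and all of its 637 exonic bases lie within another annotated gene of the same strand. TOMM20L had 0 to 2 counts. RPF and TE of these 4 genes were not analysed here.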

How the data were processed

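The authors treated cells with cycloheximide, digested part of each lysate with micrococcal nuclease and sequenced RPF and input RNA. For input they aligned reads to hg38 with STAR and deposited raw counts per gene from featureCounts (version 2.0.1 per the file header, 1.6.0 per the labels). The TE table they deposited holds signal values named RPKM, which were whole reads times a constant per library (100% of values within 0.01 of a whole number), that is, reads scaled by a size factor. The plan had assumed RPKM, and its log-scale test was kept as the main one.

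For input, edgeR 4.0.16 was used with TMM factors, its low-count filter and the quasi-likelihood test. The SE given for input is the absolute log2 change over the square root of the F statistic of that test, not a separately fitted error. RPF and TE were fitted by limma 3.58.1 with a variance trend, after log2 of the value plus 1, which understates changes of low genes. RPF used 4 libraries and TE the interaction over 8, without a block on the lysate. Input and RPF libraries thus share the spread of the TE test, which can understate the noise of genes with few footprints. A mean of at least 1 was required in each library type. edgeR was run on the recovered reads beside limma, and all p-values are two-sided and adjusted over all genes. Models were also run on simulated counts in which input and RPF had the same dispersion for a gene. Such counts cannot show whether the TE test understates footprint noise, and no conclusion is drawn from them. Coding and transcript lengths and GC content came from GENCODE release 44, which covered 99.8% of the table. Exonic lengths and overlaps came from the exons that the authors list with their raw counts. Trends were removed by local regression of span 0.3. DESeq2 1.42.0, R 4.3.3 and Python 3.11.15 were used.

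Genes and lists were chosen with earlier results of these data known. Values by library are given for METTL5, for each gene called, for the 4 largest TE rises and falls and for genes whose reads could be shared. From the count table, 60718 genes were read, and 3 lines holding a gene cut in pieces were dropped. The authors' own fold changes and p-values were not used. Groups came from sample titles. By protocol, an input library and the RPF library of like genotype and number share a lysate, while METTL5-WT and METTL5-KO libraries share only a number (correlation of deviations 0.04 in input and -0.00 in RPF). The study's methods give each sample its own plates, but do not say whether these were grown independently, so p-values measure the spread between these samples, which may be technical. Alternatives changed the pseudocount, filter, tool, scaling, trend, block and replicates.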

Additional observations from a re-analysis of the deposited data

How the results depend on the processing

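Of the 35 genes, 3 were called in input, 4 in RPF and 3 in TE. These counts moved by over 1.5 times when limma was run without the variance trend (0 in RPF, 0 in TE, with 6 and 7 at an unadjusted p under 0.05), with DESeq2 on the recovered reads (2 in RPF), in a model of all 8 libraries (7 in RPF) and with the lysate as replicate block (5 in TE, TOMM70 and TOMM20 added). The block on the shared number gave 3 in input, 6 in RPF and 4 in TE, and TIMM10 kept its TE call under both blocks. The RPF median was 0.0795 with edgeR, 0.0802 with DESeq2, 0.0725 after quantile normalization and -0.0464 with the length trend removed, which also took the difference of short and long genes to -0.0447. With 1 library left out, calls ranged from 0 to 14 in input, 1 to 6 in RPF and 0 to 1 in TE. Medians then ranged from -0.0174 to 0.0406 in input, 0.0551 to 0.105 in RPF and -0.00938 to 0.26 in TE, and in TE from -0.0504 to 0.32 for short genes, -0.0488 to 0.23 for long ones and -0.0227 to 0.20 for their difference. Input calls were 0 without either METTL5-WT replicate (2 and 1 at an unadjusted p under 0.05), 14 without METTL5-KO replicate 1 and 5 without METTL5-KO replicate 2. RPF calls were 1 without either METTL5-KO replicate, and TE calls were 0 without METTL5-WT replicate 2 or either METTL5-KO replicate. The cause was not tested. The TE change of PAM16 ran from -0.31 (without METTL5-WT replicate 1) to 2.23 (without METTL5-WT replicate 2). Over 19 alternatives the TE change of TIMM10 ran from 0.50 to 0.86 (limma, edgeR or DESeq2 adjusted p 0.00105 to 0.212), of HSPE1 from -1.40 to -0.99 (0.0103 to 0.235) and of TOMM40 from -0.79 to -0.40 (0.0167 to 0.259). Depth limits HSPE1 (82 RPF reads in all), PAM16 (63) and TIMM23B (48).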
